A study of Mus musculus with 6 samples.

Results

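The genes described here are 6 cystatins (Cst3, Cst8, Cst9, Cst12, Cstb and Cst6) and 4 cathepsins (Ctsl, Ctsb, Ctsd and Ctsh), chosen by gene symbol as protease inhibitors and proteases of the testis, 10 of 55850 gene rows. They were measured by RNA sequencing of whole mouse testis in 3 conditional knockout (cKO) and 3 wild-type (WT) libraries, all labelled as untreated. The study asked what the loss of the splicing factor SRSF2 in Sertoli cells does to the testis. Sertoli cells line the seminiferous tubule and feed the developing germ cells. The sources used here do not give the Cre driver, the deleted stretch of Srsf2, the strain or the age of the mice. Nothing in the labels says that the libraries came from separate animals, so a p-value measures only the spread between these libraries, which may be technical. In whole testis, fewer cells of a type and less RNA per cell cannot be told apart.

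Lysosomal cathepsins degrade proteins inside the cell and, once secreted, in the extracellular matrix. Cystatins block the papain-like cysteine cathepsins (cathepsins L, B and H among the genes here) by wedging conserved stretches into the active site. Cathepsin D is an aspartic protease and is not a target of cystatins. In the seminiferous epithelium, proteases and their inhibitors take part in the remodelling of cell junctions and in the movement of germ cells. The reproductive cystatins of the CRES subgroup (among them Cst8, Cst9 and Cst12) are known for expression in testis and epididymis and for lacking parts of the consensus needed to inhibit papain-like proteases.

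The coding sequence shows that division. In Cst3 the first hairpin loop holds the residues glutamine, any residue, valine, any residue, glycine, a stretch that enters the protease. The windows below hold 39 coding bases each, 5′ to 3′, read from GENCODE M21 transcripts (GRCm38), with the 5 codons aligned to that loop of Cst3 in capitals.
Cst3: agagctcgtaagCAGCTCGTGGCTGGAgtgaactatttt
Cstb: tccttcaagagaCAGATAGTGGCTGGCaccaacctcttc
Cst6: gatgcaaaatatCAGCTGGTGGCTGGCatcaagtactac
Cst9: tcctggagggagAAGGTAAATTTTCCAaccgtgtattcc
Cst8: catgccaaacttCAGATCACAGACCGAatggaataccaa
Cst12: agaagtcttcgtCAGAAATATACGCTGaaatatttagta
Cst13: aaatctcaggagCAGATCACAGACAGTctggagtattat
Cstdc1: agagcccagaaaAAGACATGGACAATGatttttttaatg
Cstb and Cst6 carried the loop pattern at the aligned position, as did the stefins Stfa1, Stfa3 and Cstdc5 of chromosome 16. Cst9, Cst8, Cst12, Cst13, Cst11 and Cstdc1, all on chromosome 2 beside Cst3, did not carry it anywhere in the coding sequence. The translated Cst9 shared 30.7% of aligned residues with Cst3, Cst8 shared 30.9% and Cst12 shared 30.4%, while of the genes that carry the loop Cstb shared 27.1% and Cst6 shared 33.6%.

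Libraries were of like depth, with 16185976 to 17281330 reads recovered from the deposited values in cKO and 16070287 to 16479907 in WT libraries. Srsf2, the targeted gene, averaged 82.9 ± 7.70 FPKM in cKO and 108.5 ± 16.2 FPKM in WT testis (SD, n = 3 each), 76.4% of WT. A two-sided exact permutation test of that difference gave 0.1, which is its minimum at 3 against 3. In whole testis that level does not measure the deletion in Sertoli cells. All 14 Sertoli marker genes tested had negative differences (cKO minus WT), or 11 of 14 with trends on gene length and GC content removed. None of the 14 passed the test described below. Groups did not overlap for 8 of them, a pattern with cKO lower that 9.92% of all tested genes showed, and their summed level was 1103 to 1303 FPKM in cKO and 1526 to 1961 FPKM in WT libraries. Reads on 18S ribosomal RNA took 0.727 to 0.835% of reads in cKO and 1.58 to 2.09% in WT libraries. Reads on mitochondrial genes took 2.39 to 2.97% in cKO and 1.66 to 1.98% in WT libraries, also without overlap. The part of Sertoli RNA content, of ribosomal RNA carry-over and of the mitochondrial share in the differences below was not tested. Of 12 epididymis markers none reached a mean of 1 FPKM, their summed level was 0.994 to 1.63 FPKM in cKO and 0.744 to 1.42 FPKM in WT libraries, and 6 of 8 spermatid markers also lay below 1 FPKM.

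Differences were tested with limma on log2(FPKM + 1), cKO minus WT, over the 14238 genes with a mean of at least 1 FPKM, and p-values were adjusted over all of them at a threshold of 0.05. Of the 10 genes, 9 could be tested and none passed, against 2 of 14238 genes overall (0.014%), 1 lower and 1 higher in cKO (0.00702% each). The differences of 8 were negative and that of Ctsb was positive, with a median log2 difference of -0.31, beside 0.0049 over all genes tested (7234 positive, 7004 negative). Cst9 alone of the 9 had groups that did not overlap, with cKO lower. Over all genes tested, 9.92% had cKO below WT in that way. At an unadjusted p under 0.05, Cst9 was likewise the one gene of the 9, against 7.68% of all genes with a lower and 4.65% with a higher level in cKO. The median of the 9 was -0.067 without WT replicate 1, the library with the highest value among WT libraries in 7 of the 9 genes. It was -0.13 with trends on gene length and GC content removed and -0.15 with estimated library weights.

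**Figure D1:**
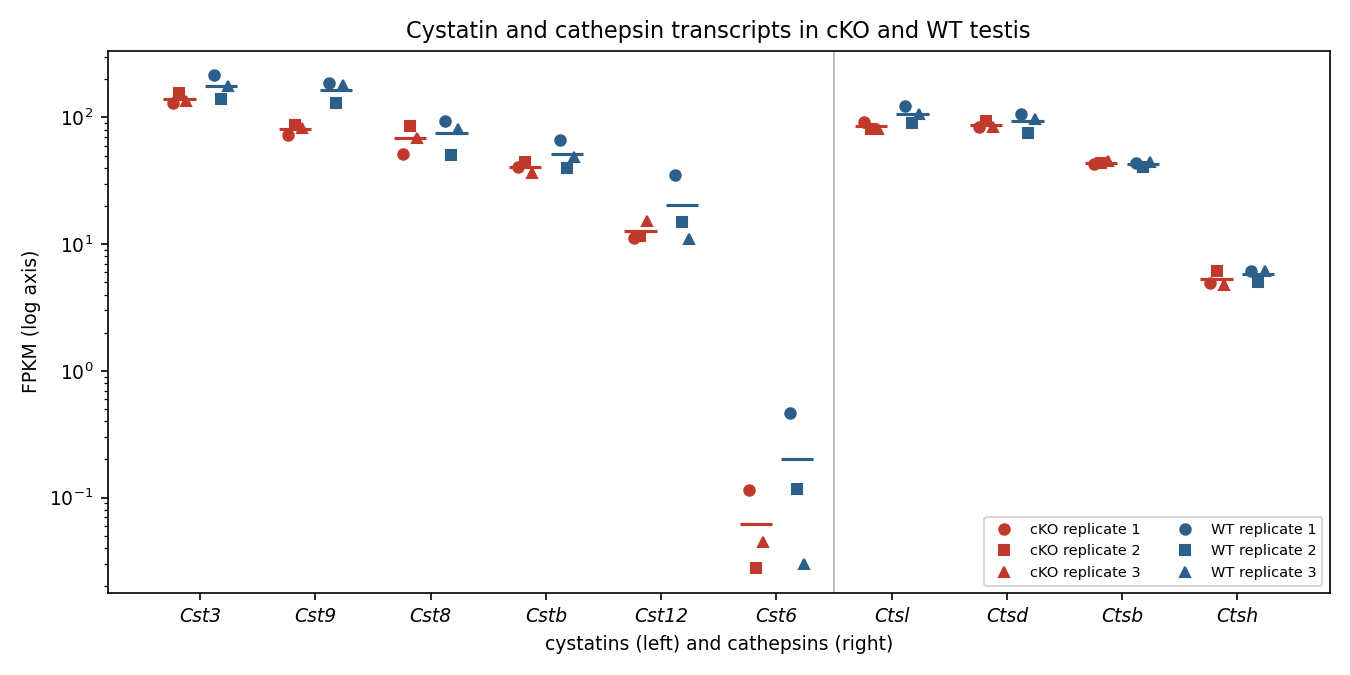
FPKM of the 10 genes on a log axis, one point per library, with cKO (red) left of WT (blue) for each gene, a line at each group mean (n = 3 each) and cystatins left of cathepsins. Cst9 is the one tested gene whose 3 cKO libraries (73.2 to 87.8 FPKM) all lie below its 3 WT libraries (129 to 188 FPKM).

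Cst9 encodes testatin, a cystatin known for its expression in the pre-Sertoli cells of the fetal mouse gonad. The gene (ENSMUSG00000027445) is on the plus strand of chromosome 2, from 148835147 to 148838738 in GRCm38. Its level was 73.2, 87.8 and 82.6 FPKM in cKO libraries and 188, 129 and 181 FPKM in WT libraries. Every cKO library was below every WT library, and the lowest WT library, replicate 2, was the closest to the cKO range. The mean was 81.2 ± 7.42 FPKM in cKO and 166.0 ± 32.3 FPKM in WT (SD, n = 3 each), 48.9% of WT. The values rested on 858 to 1063 reads in cKO and 1487 to 2059 reads in WT libraries. The log2 difference was -1.01 (SE 0.17, 95% interval not adjusted over genes -1.41 to -0.61), and the limma adjusted p was 0.306. Its unadjusted p ranked 18 of 14238. With estimated library weights Cst9 passed (log2 difference -1.05, limma adjusted p = 0.0389), a setting in which 491 genes passed with lower and 189 with higher levels in cKO. Over the 21 other settings its limma adjusted p ran from 0.0389 to 0.842, and its log2 difference from -1.18 to -0.90.

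Because the differences of the 14 Sertoli markers were negative, Cst9 was set against single Sertoli transcripts within each library. Amh encodes anti-Müllerian hormone, a product of immature Sertoli cells, and was itself at 454, 366 and 330 FPKM in cKO against 907, 619 and 777 FPKM in WT libraries. The ratio of Cst9 to Amh was 0.161, 0.240 and 0.250 in cKO and 0.208, 0.208 and 0.233 in WT libraries, with means of 0.217 ± 0.0488 and 0.216 ± 0.0142, so the groups overlapped. Against Shbg, the gene of the androgen-binding protein, the ratios overlapped as well. Against Wt1, a transcription factor of Sertoli cells, the ratio was 2.72, 3.11 and 2.85 in cKO and 7.20, 4.32 and 5.52 in WT libraries, with no overlap. The ratios to Sox9, Gata4, Inha, Aard and Clu were also lower in every cKO library than in any WT library. For Clu, which encodes the secreted chaperone clusterin, the ratio was 0.253, 0.297 and 0.294 in cKO and 0.600, 0.480 and 0.529 in WT libraries. Cst9 thus lay lower in cKO relative to 6 of the 8 Sertoli transcripts used and overlapped relative to Amh and Shbg. The rest of the 14 markers were not used as denominators, and the 8 were picked with their values known. Cst9 by itself separated the groups, so the count of 6 is not independent of that. How often other genes as denominators would leave the groups apart was not computed. The Cst9 ratios share 1 numerator and are given without a test. Other numerators were set against the same 8 transcripts, also without a test. Ctsl over Amh was 0.204, 0.222 and 0.247 in cKO and 0.136, 0.145 and 0.138 in WT libraries. Ctsl and Cst3 lay higher in every cKO library relative to Amh, Aard and Shbg. Cst8 lay higher relative to Amh and Aard, and Cstdc1 lower relative to Sox9, Wt1, Gata4 and Clu. All other ratios of these genes, and those of Cst12, overlapped.

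Cst3, Cst8 and Cst12 are neighbours of Cst9 on chromosome 2, and none of the 3 separated the groups. Cst3 (chr2:148871722-148875692, minus strand) encodes cystatin C, a secreted inhibitor made by Sertoli cells and many other cells. It stood at 130.0, 155 and 135 FPKM in cKO libraries and 215, 139.8 and 177 FPKM in WT libraries, so that WT replicate 2 fell inside the cKO range. The means were 139.7 ± 13.2 FPKM in cKO and 177.1 ± 37.4 FPKM in WT (SD, n = 3 each), with a log2 difference of -0.32 (interval -0.73 to 0.09, SE 0.18, limma adjusted p = 0.479). Cst8 (chr2:148798785-148805595, plus strand) encodes CRES, the cystatin-related epididymal spermatogenic protein. Its level was 51.6, 85.6 and 69.0 FPKM in cKO libraries and 94.1, 50.1 and 81.3 FPKM in WT libraries. Both groups spanned nearly the same range, and the log2 difference of -0.11 (interval -0.72 to 0.50, SE 0.26, limma adjusted p = 0.875) changed sign without cKO replicate 1 (0.080) or WT replicate 1 (0.075). Cst8 was read at these levels while the epididymis markers were near 0, as given above. Cst12 (chr2:148789361-148793546, plus strand) encodes cystatin TE-1 of testis and epididymis. It was at 11.2, 11.5 and 15.2 FPKM in cKO libraries and 35.2, 14.8 and 11.0 FPKM in WT libraries. The WT mean of 20.3 ± 13.0 FPKM rested on replicate 1, beside a cKO mean of 12.6 ± 2.26 FPKM (SD, n = 3 each). Its log2 difference was -0.49 (interval -1.33 to 0.36, SE 0.37, limma adjusted p = 0.584), and -0.024 without WT replicate 1.

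Of 9 cystatin genes of that cluster, which runs from Cstl1 to Cst3, 6 passed the filter on low values, 5 with negative differences and 1 with a positive one. Cstdc1 (chr2:148782009-148785937, plus strand), which encodes a protein with a cystatin domain, was at 5.64, 10.5 and 7.53 FPKM in cKO libraries and 31.9, 18.3 and 15.1 FPKM in WT libraries. Its groups did not overlap, and its mean was 7.88 ± 2.43 FPKM in cKO and 21.7 ± 8.90 FPKM in WT (SD, n = 3 each), 36.2% of WT. The log2 difference was -1.32 (SE 0.29, interval -1.99 to -0.66), with a limma adjusted p of 0.360, and of 0.0488 (with library weights) to 0.842 over the 21 other settings. Cstdc1 rested on 58 to 111 reads in cKO and 148 to 305 reads in WT libraries. Cst13, the cystatin T gene between Cst8 and Cst9, lay the other way, at 2.02, 3.41 and 2.90 FPKM in cKO libraries and 1.77, 1.67 and 1.64 FPKM in WT libraries, with no overlap. Its log2 difference was 0.47 (SE 0.17, limma adjusted p = 0.380). Over all genes tested, 8.69% had cKO above WT without overlap. Cst11, Cstl1 and Cstdc2 stayed below 1 FPKM. Genes flanking the cluster had log2 differences of -0.27 for Nxt1, 0.15 for Gzf1 and 0.27 for Napb, and these 3 were picked by position.

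**Figure D2:**
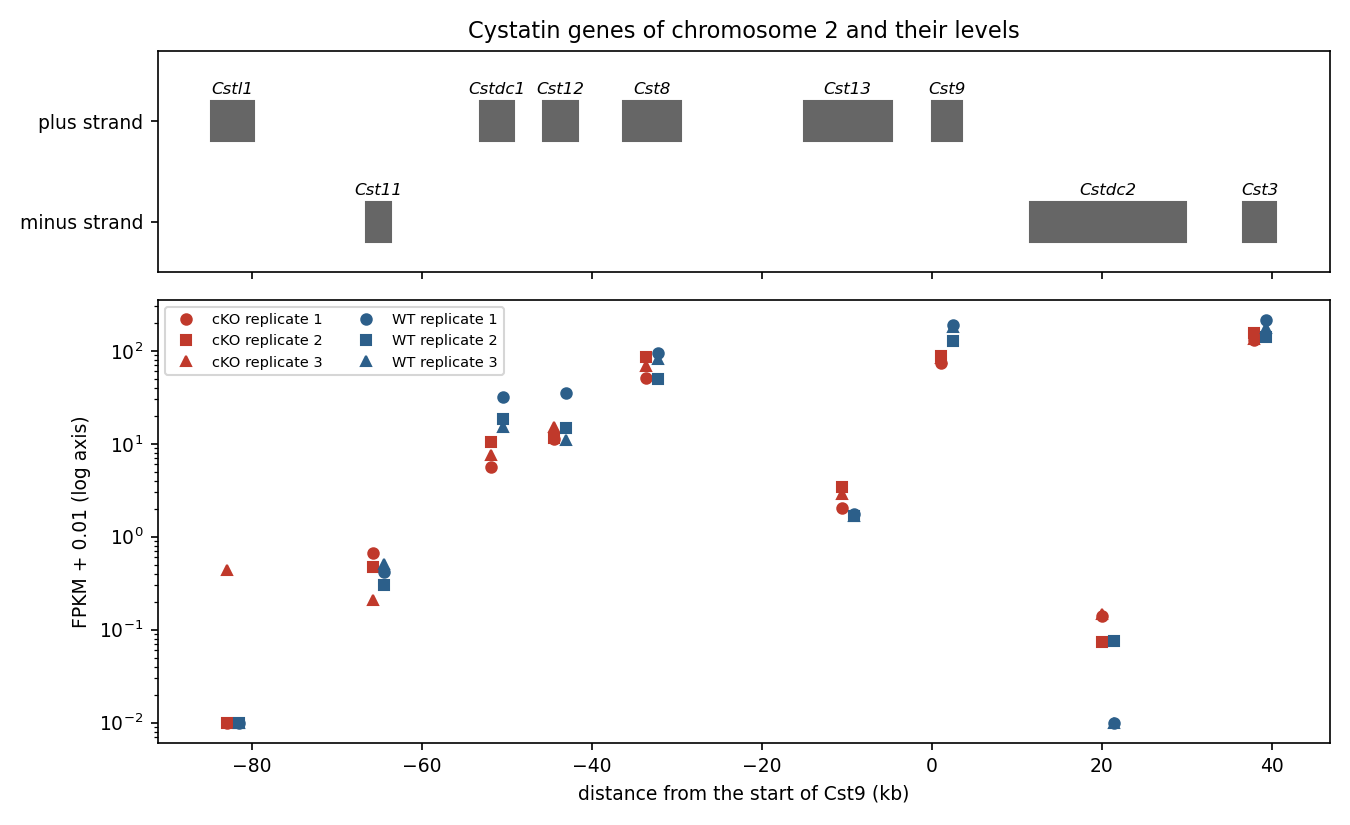
Top, the 9 cystatin genes of the chromosome 2 cluster drawn to scale by strand, with distance from the start of Cst9 in kb; bottom, FPKM + 0.01 of each gene in each library on a log axis, with cKO (red) left of WT (blue). Cst9 and Cstdc1 lie lower in all 3 cKO libraries, Cst13 lies higher, and the other genes overlap between the groups or are near 0.

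The 250 bases before the start of Cst9 (chr2:148834897-148835146, plus strand) and of Cstdc1 (chr2:148781759-148782008, plus strand) are shown because these genes had the most negative differences of the cluster. They are from RefSeq on GRCm38.p6, and capitals mark a match to a searched motif.
Cst9: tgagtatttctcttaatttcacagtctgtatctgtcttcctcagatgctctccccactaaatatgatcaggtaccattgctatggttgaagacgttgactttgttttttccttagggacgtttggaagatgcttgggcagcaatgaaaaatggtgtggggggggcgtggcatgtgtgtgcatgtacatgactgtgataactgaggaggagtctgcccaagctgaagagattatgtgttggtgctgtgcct
Cstdc1: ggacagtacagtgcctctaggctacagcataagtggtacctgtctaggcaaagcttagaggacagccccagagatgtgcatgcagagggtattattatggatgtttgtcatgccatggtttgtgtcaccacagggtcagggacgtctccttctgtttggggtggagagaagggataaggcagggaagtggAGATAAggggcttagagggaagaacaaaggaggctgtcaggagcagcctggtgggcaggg
Promoters were matched for 6 of the 10 genes, and not for Cstb, Cst6, Ctsb and Ctsh. Each window ends at the RefSeq start, which for Cst3, Cst8, Cst12, Ctsl and Ctsd lies inside the gene as GENCODE M21 places it, so those windows are not described. The Cst9 window held none of 5 motifs searched, each as an exact run of letters. Variants of these motifs were not searched, so a window without a match may still hold a variant. TATAAA, the TATA box, was searched on the strand of the gene alone, and was found in 7.59% of 32851 promoters of that length. The rest were searched on both strands. AACAAT, a core motif of SOX factors, was found in 9.42% of the promoters. CACGTG, an E-box, was found in 6.02%. TGACCTTG, a motif of the steroidogenic factor NR5A1, was found in 1.33%. AGATAA, a motif of GATA factors, was found in 9.99%. The Cstdc1 window held it 60 bases before the start and matched none of the other runs searched. AGATAA was found for 7 of 16 cystatins outside the 10 genes, Cstdc1 among them, counting windows that lie partly inside the gene. Stfa3 and Csta3, whose differences were positive, are also among the 7. A match is a run of letters, and binding was not measured.

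Cstb (chr10:78425669-78427622, plus strand, GRCm38) encodes stefin B, an inhibitor that stays in the cytosol. It was at 40.6, 44.3 and 36.6 FPKM in cKO libraries and 66.2, 39.9 and 48.5 FPKM in WT libraries. WT replicate 2 lay inside the cKO range, and the log2 difference was -0.31 (interval -0.75 to 0.12, SE 0.19, limma adjusted p = 0.509). Cst6 (chr19:5344705-5349574, minus strand) encodes cystatin E/M, which also inhibits legumain. It was close to undetected, with 8, 2 and 3 reads in cKO libraries and 30, 8 and 2 reads in WT libraries, or at most 0.115 FPKM in cKO and 0.461 FPKM in WT. It did not pass the filter, and 30 of its 40 WT reads came from replicate 1.

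Among the 4 cathepsins, Ctsl had the most negative difference. Ctsl lies at chr13:64359337-64370890 of GRCm38, minus strand. Its exons overlap those of Gm47123 (opposite strand) and of the readthrough gene Gm49230 (same strand), by 2137 bases in all. The division of reads among these genes is therefore uncertain. Cathepsin L is a cysteine protease known as a secreted product of rat Sertoli cells. Its level was 92.7, 81.4 and 81.5 FPKM in cKO libraries and 123, 89.6 and 107 FPKM in WT libraries, so the highest cKO library lay just above the lowest WT library. The means were 85.2 ± 6.53 FPKM in cKO and 106.6 ± 16.9 FPKM in WT (SD, n = 3 each), with a log2 difference of -0.31 (interval -0.66 to 0.03, SE 0.15, limma adjusted p = 0.427). Ctsb (chr14:63122462-63145923, plus strand) encodes cathepsin B, an endopeptidase that also trims dipeptides from the carboxyl end of proteins. It was the most even of the 9 genes, at 43.0, 43.7 and 45.3 FPKM in cKO libraries and 44.0, 40.5 and 44.7 FPKM in WT libraries. Its highest library exceeded its lowest by 1.05 times in cKO and 1.10 times in WT. The interval of its log2 difference of 0.031 (limma adjusted p = 0.916) ran from -0.21 to 0.28, which bounds the difference more tightly than for the other 8 genes. Exons of Ctsb overlap those of Fdft1 on the opposite strand by 774 bases, and strand use in the counting is not stated.

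Ctsd (chr7:142375911-142388038, minus strand, GRCm38) encodes cathepsin D, the main lysosomal aspartic protease. It was at 83.9, 93.7 and 83.4 FPKM in cKO libraries and 107, 75.7 and 96.9 FPKM in WT libraries. The cKO libraries lay inside the WT range, with a log2 difference of -0.085 (interval -0.44 to 0.27, SE 0.15, limma adjusted p = 0.825). A readthrough gene, Gm49369, shares 808 exon bases with Ctsd and was listed at 0 reads in every library, so the division of reads between them is uncertain. Ctsh (chr9:90054152-90076089, plus strand) encodes cathepsin H, an aminopeptidase, and was the lowest of the 4 proteases at 4.95, 6.18 and 4.78 FPKM in cKO libraries and 6.09, 5.01 and 6.19 FPKM in WT libraries. These groups overlapped, with a log2 difference of -0.10 (SE 0.14, limma adjusted p = 0.758).

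**Figure D3:**
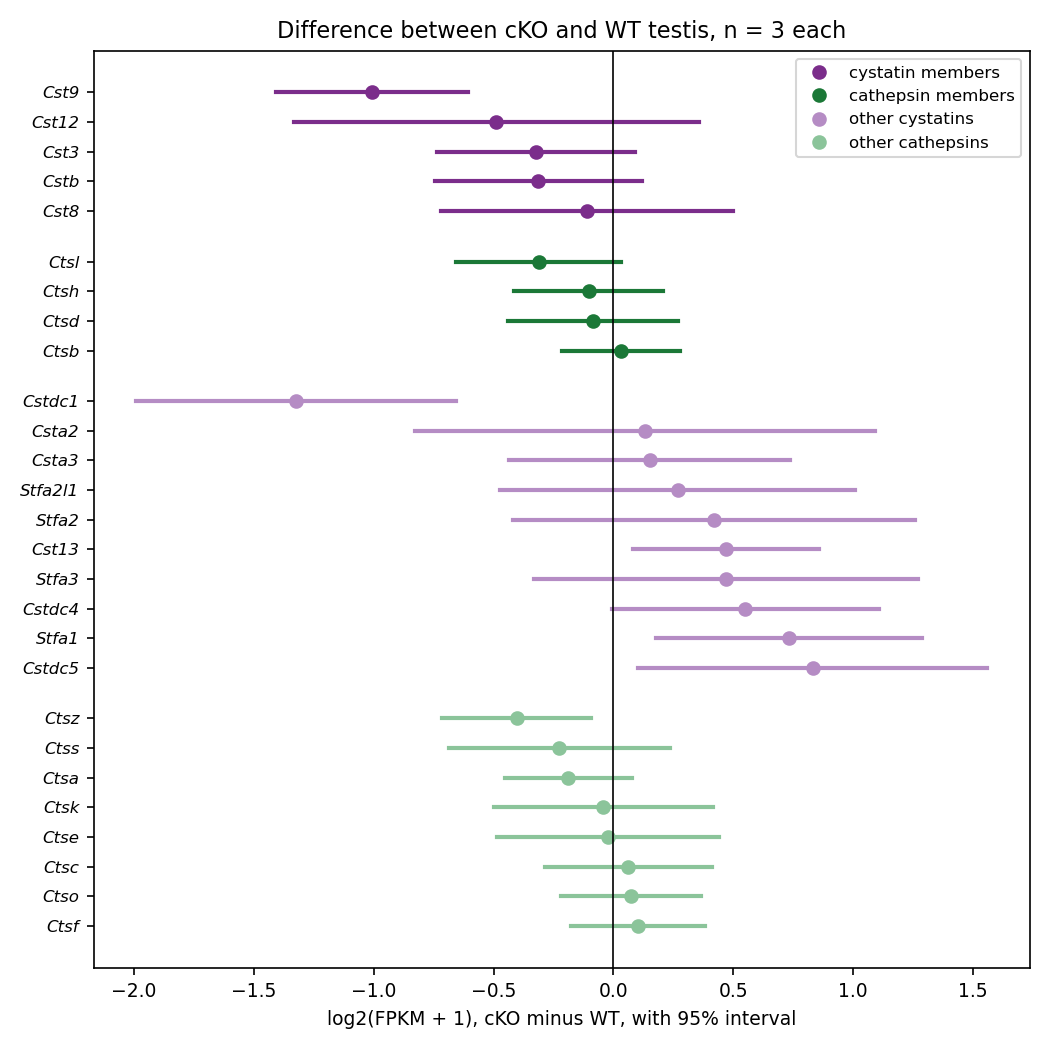
Log2 difference (cKO minus WT) on log2(FPKM + 1) with its 95% interval, not adjusted over genes, for the tested cystatins and cathepsins described here and for the others of both families (n = 3 each). The interval of Cst9 (-1.41 to -0.61) lies below 0, while those of the 8 other genes in the darker colours span 0.

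In mean FPKM over the 6 libraries the order was Cst3, Cst9, Ctsl, Ctsd, Cst8, Cstb, Ctsb, Cst12, Ctsh and Cst6. Neighbours in that order overlapped over the 6 libraries except Ctsb over Cst12, Cst12 over Ctsh and Ctsh over Cst6. The order depended on gene length. The deposited length of Ctsl was 6489 bases, the union of its exons, while its shortest coding transcript holds 1971 bases. With such shortest lengths Ctsl came first, at 280.5 ± 21.5 FPKM in cKO and 351 ± 55.5 FPKM in WT (SD, n = 3 each). The ratio of cKO to WT FPKM of 1 gene does not depend on that length, as long as every library uses the same one. Its difference on log2(FPKM + 1) depends on the length through the added 1.

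Transcripts of the cystatins and of the cathepsins were then summed within each library. The sums include Ctsd, whose product is not a target of cystatins, and Cst9, Cst8 and Cst12, which lack the loop pattern. Their ratio therefore compares 2 gene families and does not measure inhibition of proteases. The 6 cystatins summed to 307, 384 and 338 FPKM in cKO libraries and 599, 374 and 499 FPKM in WT libraries. The 4 cathepsins summed to 225, 225 and 215 FPKM in cKO libraries and 280.1, 211 and 255 FPKM in WT libraries. Both sums overlapped between the groups. The cystatin sum divided by the cathepsin sum was 1.37, 1.71 and 1.57 in cKO libraries and 2.14, 1.77 and 1.96 in WT libraries, which did not overlap. The mean ratio was 1.55 ± 0.172 in cKO and 1.96 ± 0.183 in WT (SD, n = 3 each), so cKO stood at 0.792 of WT. Without Cst3 and Ctsl, the highest gene of each family, the ratio was 1.34, 1.60 and 1.52 in cKO libraries and 2.45, 1.93 and 2.17 in WT libraries, again with no overlap. With the longest coding lengths the groups did not overlap either, at 1.43 to 1.76 in cKO and 1.82 to 2.20 in WT libraries. Without Cst9, a sum added after its values were seen, the ratio was 1.04, 1.32 and 1.19 in cKO libraries and 1.47, 1.16 and 1.25 in WT libraries, with overlap. With the shortest coding lengths it was 0.789, 1.03 and 0.934 in cKO libraries and 1.18, 0.989 and 1.09 in WT libraries, also with overlap.

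**Figure D4:**
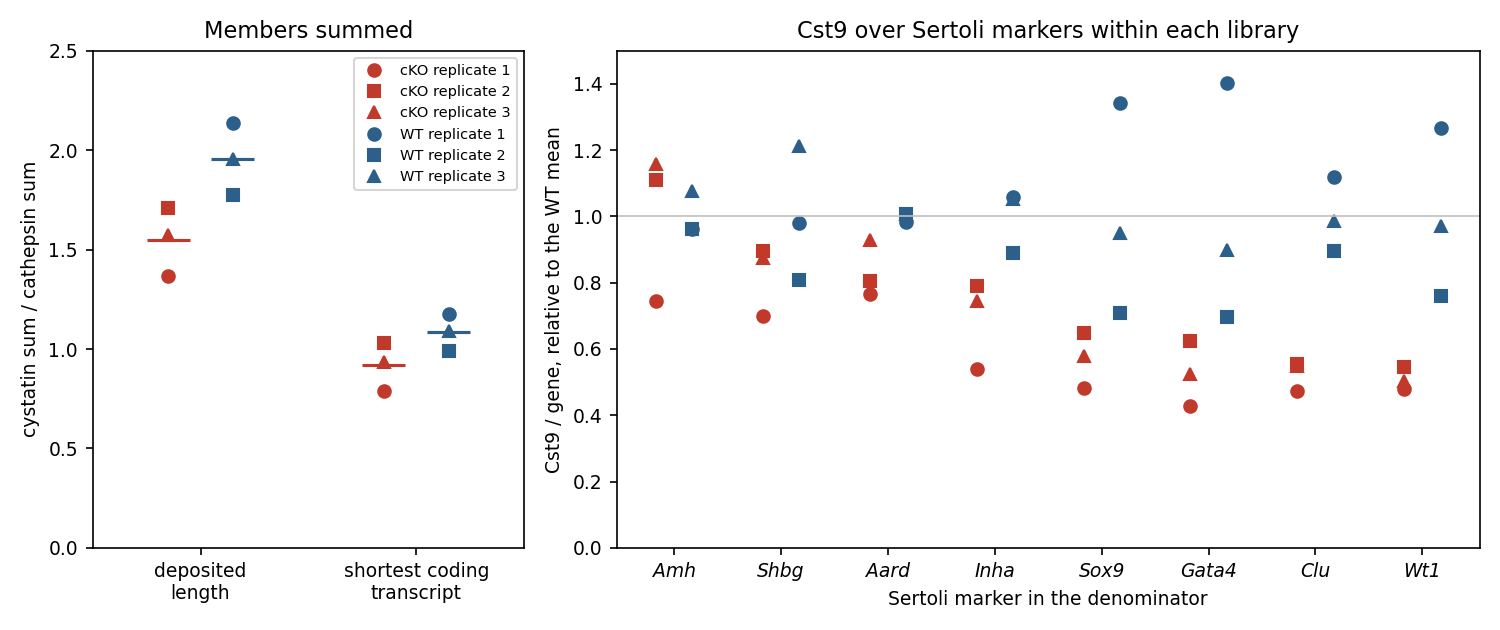
Left, the cystatin sum divided by the cathepsin sum in each library with deposited and with shortest coding lengths, lines at group means; right, Cst9 FPKM divided by that of 8 Sertoli transcripts, relative to the WT mean, with cKO (red) left of WT (blue). At deposited lengths the cKO ratios of the sums (1.37 to 1.71) lie below the WT ones (1.77 to 2.14), and at the right the ratios to Amh and Shbg overlap between the groups while the other 6 do not.

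Of 19 other cathepsins in the table, 8 passed the filter, 3 with positive and 5 with negative differences and a median of -0.031. None passed the test. Ctsz encodes cathepsin X, a carboxypeptidase, and was the one of the 8 whose groups did not overlap, with cKO lower. Over all genes tested, 9.92% had that pattern and 18.6% had no overlap in either direction. Ctsz was at 48.7, 44.7 and 42.1 FPKM in cKO libraries and 68.0, 52.1 and 60.8 FPKM in WT libraries. Its log2 difference was -0.40 (interval -0.72 to -0.09, SE 0.14, limma adjusted p = 0.379). Over the 21 other settings that p ran from 0.0488, with library weights, to 0.842. The others had log2 differences of -0.23 for Ctss, the cathepsin of antigen-presenting cells, -0.19 for Ctsa, -0.042 for Ctsk, -0.021 for Ctse, 0.062 for Ctsc, 0.073 for Ctso and 0.10 for Ctsf.

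Genes of the lysosome as a whole did not pass the test either. Of 28 lysosomal enzymes tested, 8 had positive and 20 negative differences, with a median of -0.091. Groups did not overlap for 6 of the 28 with cKO lower and for 2 with cKO higher. Over all genes tested those shares were 9.92% and 8.69%. Asah1, acid ceramidase, had a log2 difference of 0.38 (limma adjusted p = 0.379) and Ids, iduronate sulfatase, one of 0.33. Hexa, a subunit of beta-hexosaminidase, had -0.47 and Galns, a sulfatase of keratan sulfate, had -0.37. Of 18 membrane proteins and cofactors, 8 were positive and 10 negative (median -0.028), with 0.30 for Lamp2. Of 9 sorting genes, 5 were positive and 4 negative (median 0.024), with -0.35 for Lrp1. The transcription factors Tfeb and Tfe3, known as regulators of lysosomal genes, had -0.11 and -0.12. Of 7 inhibitors of other protease classes, 4 were positive and 3 negative (median 0.0071). The serine protease inhibitor Spint2 among them was at 20.1, 20.6 and 17.0 FPKM in cKO libraries and 44.7, 25.3 and 32.2 FPKM in WT libraries, with no overlap and a log2 difference of -0.76 (SE 0.20, limma adjusted p = 0.372). The plasma proteins with cystatin domains Ahsg and Fetub had -0.39 and -0.0092.

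Other cystatins lay mostly the other way. Of 19 measured, 10 passed the filter, and all but Cstdc1 had positive differences, with a median of 0.44 and none past the test. Of these, 8 are stefin A genes of chromosome 16, intracellular inhibitors known from white blood cells and skin. Stfa1 was at 25.9, 45.2 and 21.6 FPKM in cKO libraries and 17.4, 17.0 and 17.4 FPKM in WT libraries, with no overlap and a log2 difference of 0.73 (SE 0.24, limma adjusted p = 0.379). Cstdc5 was at 19.4, 44.0 and 16.7 FPKM in cKO libraries and 13.8, 12.1 and 14.0 FPKM in WT libraries, with no overlap and a log2 difference of 0.83 (SE 0.32, limma adjusted p = 0.381). The group of 11 summed to 81.6, 176 and 76.3 FPKM in cKO libraries and 80.7, 64.1 and 61.1 FPKM in WT libraries, so cKO replicate 2 stood far above the rest. Without it, 5 of the 8 tested were positive and the median was 0.044. Stefin A genes share stretches with each other, with 22.5% of the 50-base words of Stfa1 and 25.1% of those of Cstdc5 also found in another gene, so their single values are uncertain.

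In a list of 10 neutrophil genes added after the stefin values were seen, 8 had positive differences, and the summed level was 215, 350.0 and 156 FPKM in cKO libraries and 129.7, 144 and 167 FPKM in WT libraries, and the sum was highest in cKO replicate 2, as for the stefins. S100a8, a calcium-binding protein abundant in neutrophils, was at 58.3, 113 and 50.3 FPKM in cKO libraries and 35.7, 42.3 and 45.6 FPKM in WT libraries. Mpo, which encodes the peroxidase of neutrophil primary granules, lay the other way, at 0.342, 0.878 and 0.877 FPKM in cKO libraries and 1.56, 1.57 and 1.36 FPKM in WT libraries. Ctsg, a serine protease of the same granules, lay below the filter, with 0, 1 and 5 reads in cKO libraries and 10, 13 and 14 reads in WT libraries. Macrophage markers summed to 67.6 to 112 FPKM in cKO and 68.4 to 87.3 FPKM in WT libraries, and haemoglobin genes and other blood markers to 4860 to 6438 FPKM in cKO and 2712 to 5657 FPKM in WT libraries. The part of blood cell content in the stefin values was not tested.

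**Figure D5:**
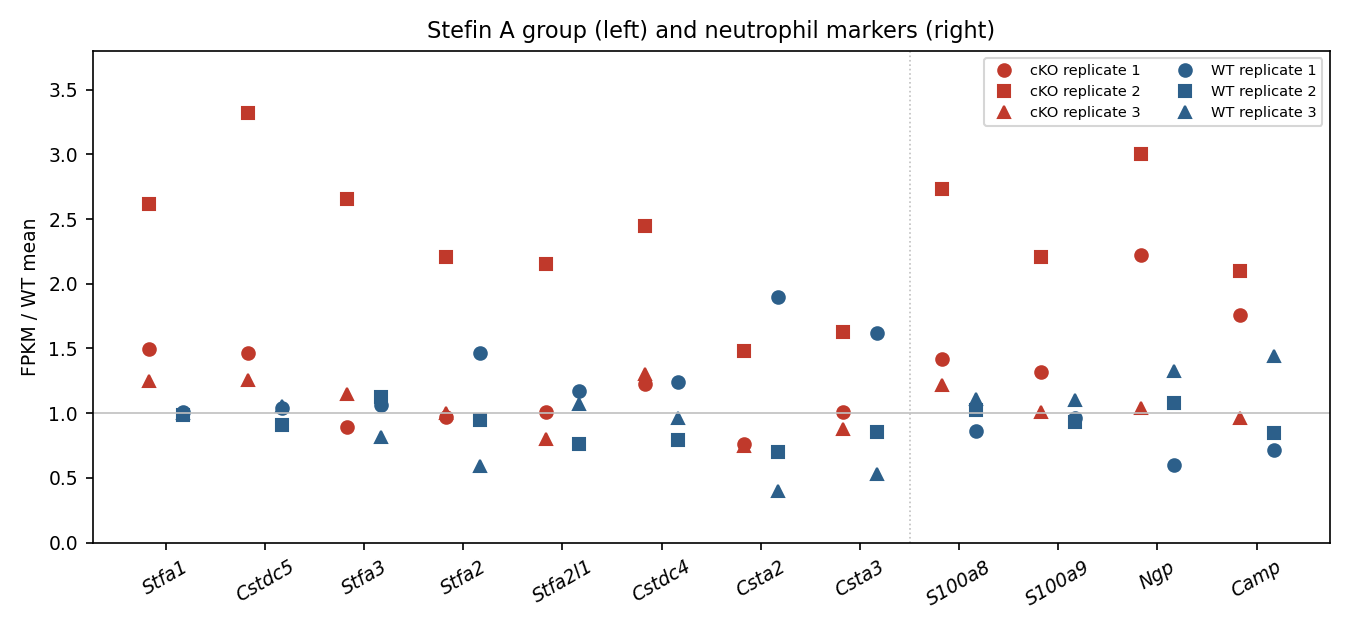
FPKM relative to the WT mean of each gene, one point per library, with cKO (red) left of WT (blue). The 8 tested stefin A genes stand left of the dotted line and 4 picked from the list of 10 neutrophil genes stand right. That list had 2 negative differences, and Mpo, which lay lower in cKO, is not drawn. The red squares, cKO replicate 2, are the highest point of every gene but Csta2, where WT replicate 1 is higher.

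Markers of other cells of the testis are given for comparison. Germ cell markers had 8 of 9 positive differences (median 0.40), 7 of 9 with quantile normalization and 5 of 9 without WT replicate 3, and summed to 270.2 to 411 FPKM in cKO and 203 to 452 FPKM in WT libraries. Leydig cell markers summed to 1495 to 1743 FPKM in cKO and 1276 to 1902 FPKM in WT libraries, and peritubular myoid markers to 191 to 223 FPKM in cKO and 191 to 230.0 FPKM in WT libraries. Stroma markers summed to 529 to 686 FPKM in cKO and 688 to 738 FPKM in WT libraries. Endothelium markers summed to 68.7 to 76.6 FPKM in cKO and 77.6 to 87.7 FPKM in WT libraries. Both of these sums were lower in every cKO library than in any WT library, as was the Sertoli sum. All 5 endothelium markers had negative differences (median -0.15). Of 5 stroma markers, 3 were positive and 2 negative (median 0.0051). The part of these cell types in the cystatin and cathepsin values was not tested.

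Finally, the genes with the most similar profile over the 6 libraries were sought, by the root mean square difference of log2(FPKM + 1) after centring each gene. Only protein-coding genes with at least 0.75 of the profile range of Cst9 were compared, 786 in all. The closest to Cst9 were Slc13a2, a sodium-coupled dicarboxylate transporter (0.0720), Wfdc10, of the WAP domain family (0.0886), Kazald1 (0.102), Rnf5, a ubiquitin ligase (0.146) and Dnajb3, a co-chaperone (0.149). Slc13a2 was at 1.31 to 1.86 FPKM in cKO and 2.82 to 5.29 FPKM in WT libraries. Wfdc10 was at 1.28 to 1.73 FPKM in cKO and 2.34 to 4.38 FPKM in WT libraries. At such low levels the added 1 narrows a profile, so their closeness to Cst9 depends on it. Kazald1 was at 34.0, 38.9 and 31.7 FPKM in cKO libraries and 90.0, 59.1 and 75.5 FPKM in WT libraries. For Cst3, 1075 of 5577 genes compared lay within 0.2, with Clta, a clathrin light chain, closest at 0.0350. For Cst8, 105 of 3301 genes lay within 0.2, with Timp1, an inhibitor of metalloproteases, closest at 0.0774. For Cst12, no gene of 400 lay within 0.2, and the closest was Rhox1 at 0.239.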

How the data were processed

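Per the labels' protocols, Trizol was used to extract RNA of 6 whole-testis samples, and a SMARTER mRNA-Seq kit to prepare libraries. The authors deposited FPKM per gene (reads scaled to gene length and to a library total), per the file headers. The builds named are GRCm38 and mm10, per the submitters' processing notes. The sources used here do not give the aligner, counter, annotation release or strand use. FPKM times the deposited length was a whole number of reads for 100% of values within 0.01, and depth comes from these reads. Intervals cover the spread between libraries, not mapping error.

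Deposited positions do not match GRCm38 (1499 of 52081 shared identifiers start alike), so positions are those of GENCODE M21, looked up by identifier. Deposited lengths equalled M21 exon unions for 98.7% of shared identifiers.

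Groups were compared with limma 3.58.1 in R 4.3.3 (trended prior variance) on log2(FPKM + 1), which understates changes of low genes, with Benjamini-Hochberg adjustment over 14238 genes. Negative binomial count tests were not run, since the table holds FPKM. The fit was tested on simulated data drawn with the same spread in every library. The libraries here differed in estimated weight, so that test does not give the power of the fit on these data. The 10 genes and all gene lists were chosen with earlier results of these data known. Named genes are the 10, Srsf2, cystatins and cathepsins with a mean of at least 1 FPKM, up to 4 genes of lowest p per family list, up to 2 of highest level per marker list, and the 5 nearest profiles of Cst9, Cst8, Cst12 and Cst3. Outside that rule, genes below 1 FPKM, flanking genes, overlapping genes, Sertoli genes used as denominators and Mpo were named after their values were seen. Other settings were pseudocounts, filters, scalings, limma options, voom on the recovered reads, library weights, a replicate block and leaving out each library. Library weights, voom, and the removal of length and GC trends, like the rest of these settings, had been used on these data before. Tables were handled in Python 3.11.15.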

Additional observations from a re-analysis of the deposited data

How the results depend on the processing

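Over 21 other settings no call changed for the 10 genes except that of Cst9. With estimated library weights, which gave WT replicate 3 a weight of 3.87 and WT replicate 1 one of 0.315, Cst9 passed (log2 difference -1.05, limma adjusted p = 0.0389), the members past the threshold with lower levels in cKO numbered 1, and 189 genes overall were higher and 491 lower. The genes higher in cKO, 1 in the main setting, numbered 0 with pseudocounts of 0.1 or 0.5, no filter, a mean of at least 5 FPKM, the TPM scale, median-of-ratios scaling or protein-coding genes alone, and 2 with length and GC trends removed. The genes lower in cKO, also 1, numbered 0 with no filter and with voom. Leaving out each library gave 0 to 0 in both directions, and 0 to 0 for the 10 genes. Small differences changed sign. Ctsd was 0.019 with quantile normalization and 0.084 with length and GC trends removed, where Ctsb was -0.022, Ctsc -0.14 and Ctso -0.11. Cst12 was 0.062 with library weights, and on the TPM scale Ctse was 0.019 and Ctsk 0.018. With each library left out, Cst8 ranged from -0.37 to 0.080, Ctsd from -0.22 to 0.019, Ctsb from -0.012 to 0.058, Ctsc from -0.028 to 0.17, Ctse from -0.15 to 0.12, Ctsk from -0.26 to 0.13, Csta2 from -0.25 to 0.61, Csta3 from -0.040 to 0.38 and Stfa2l1 from -0.12 to 0.54. Cst9 ranged from -1.18 to -0.91. Without Cst9, the cystatin over cathepsin ratio of cKO stood at 0.915 of WT. The cause of these changes was not tested.

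The labels do not say whether the replicate numbers pair the samples. Deviations of same-numbered libraries from their group means correlated at 0.0948, -0.331 and 0.393. For libraries of unlike number the correlations ran from -0.452 to 0.353. With 3 libraries a group, whose deviations sum to 0, these values cannot decide on pairing. With the replicate number as a block, 0 genes passed in either direction, and the limma adjusted p of Cst9 was 0.331. With 3 libraries a group, the differences of Cst3, Cstb and Ctsl did not pass the test, which does not show that they are absent.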
